A study of Mus musculus with 14 samples.

Results

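The postsynaptic density scaffolds of this report are 9 genes chosen by name, namely Dlg1, Dlg2, Dlg3, Dlg4, Dlgap1, Shank1, Shank2, Shank3 and Camk2a, of 24421 genes in the deposited count table. All 9 were counted in every mouse and all 9 passed the filter on low counts, which 14897 genes passed.

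Bulk RNA sequencing of the hippocampus compared 7 mice labelled LPAR2-/- with 7 wild-type (WT) controls, to ask which transcripts differ when the lysophosphatidic acid receptor 2 is missing. Every mouse was a naive male, labelled with the strain 129.C57Bl6 and an age of 10 to 12 weeks, whereas the deposited design calls the animals middle-aged to aged, so the age is not settled. The tissue label is hippocampus for all mice, while parts of the study's text name the dentate gyrus. The knockout allele lacks part of one Lpar2 coding exon in all cells, and it was kept as a homozygous colony beside a separate control colony of mixed C57BL/6 and 129/SvJ background, so genotype and colony cannot be told apart.

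The postsynaptic density is the protein mesh under the membrane of excitatory synapses. In it, membrane-associated guanylate kinases (MAGUKs, encoded by Dlg1 to Dlg4) hold glutamate receptors through their PDZ domains, SAPAP proteins (such as the product of Dlgap1) bind the guanylate kinase domain of the MAGUKs, and Shank proteins bind the SAPAPs and connect them through Homer to the actin skeleton. CaMKII alpha, the product of Camk2a, is a calcium-activated kinase that is as much a building block of this mesh as an enzyme of it, and it is needed for long-term potentiation in the hippocampus.

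The Shank genes are paralogs of each other, as are the MAGUK genes, so the sequences within each family bear on how well counted reads separate them. Dlgap1 and Camk2a have no paralog among the members, and their paralogs were not compared in sequence. Over the 9 pairs within the Shank and the MAGUK genes, the longest run of identical bases between coding sequences (GENCODE M21, GRCm38) was 17 to 26 bases, and no pair shared a stretch of 30 bases. The runs of 26 bases that Shank1 shares with Shank3, and Dlg2 with Dlg4, are shown as examples of the longest identical stretches, a length that Dlg1 with Dlg2 and Dlg2 with Dlg3 also reach, with the shared bases in capitals and 15 flanking bases on either side in lower case. All 4 stretches lie on the plus strand within a single coding exon, Shank1 at chr7:44316078-44316133, Shank3 at chr15:89503165-89503220, Dlg2 at chr7:92088584-92088639 and Dlg4 at chr11:70039184-70039239.
Shank1: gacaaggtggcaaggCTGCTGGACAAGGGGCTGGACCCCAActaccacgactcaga
Shank3: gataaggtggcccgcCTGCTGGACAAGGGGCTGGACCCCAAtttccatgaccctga
Dlg2: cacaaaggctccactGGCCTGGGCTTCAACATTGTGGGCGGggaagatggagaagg
Dlg4: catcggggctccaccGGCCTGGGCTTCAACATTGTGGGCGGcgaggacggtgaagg
The flanks differ at several bases on both sides in each pair. The read length is not given in the sources used here, and the authors left out reads that matched several genes.

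Of the gene starts of the members, RefSeq's promoter table (GRCm38.p6) held 15 for 6 members, and Shank1, Shank2 and Camk2a had no entry. The 250 bases before the Shank3 start at chr15:89499358-89499607, on the plus strand, are shown because Shank3 is the member whose place in its family differed most between the genotypes. Capitals mark the GC box GGGCGG, searched on both strands.
Shank3: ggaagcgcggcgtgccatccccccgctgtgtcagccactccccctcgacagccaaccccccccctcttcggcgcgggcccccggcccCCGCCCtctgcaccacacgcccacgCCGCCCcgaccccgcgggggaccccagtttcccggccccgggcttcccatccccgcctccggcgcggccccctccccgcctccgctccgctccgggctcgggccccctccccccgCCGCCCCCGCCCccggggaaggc
This window was 82.4% G or C with 31 CpG dinucleotides and 4 GC boxes, against a median of 52.4% G or C over 32851 windows, of which 32.7% held a GC box. Among the 15 member windows 5 held the GC box, 2 held TATAAA (12.4% of all windows) and 0 held TGACGTCA (1.55% of all windows). These matches describe the letters of the windows and say nothing about which factors act there.

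The targeted gene did not follow the labels. Lpar2 (chr8:69822565-69831102) had 144 to 234 counts in the mice labelled LPAR2-/- (median 191) and 27 to 66 in WT mice (median 45), a log2 fold change of 2.01 with an adjusted p of 8.2e-07 (edgeR's quasi-likelihood test, Benjamini-Hochberg adjustment over all genes tested). Every mouse labelled LPAR2-/- lay above every WT mouse, and a count per gene cannot show whether these reads avoid the deleted part. Groups are therefore named by their labels, and each direction below runs from the WT libraries to the libraries labelled LPAR2-/-. The libraries held 15434620 to 23258949 counts, and over the 42 pairs within a genotype none agreed within sampling noise (chi-square over its degrees of freedom at least 3.41). Pan-neuronal markers, led by Rbfox3 and Snap25, summed to 6681 to 8451 CPM (counts relative to the library size after TMM scaling) in mice labelled LPAR2-/- and 7128 to 8647 CPM in WT mice, and dentate granule cell markers, led by Prox1 and Dsp, to 1427 to 2063 CPM and 1439 to 2077 CPM, with 0 of 12 and 1 of 11 called (Tdo2, higher and chosen after its value was seen). Before any test, 9 of 12 pan-neuronal and 6 of 11 dentate granule cell markers lay lower in mice labelled LPAR2-/-. Choroid plexus markers summed to 295 CPM in the mouse 2 labelled LPAR2-/- and oligodendrocyte markers to 4244 CPM in mouse 3 of that group, so the counts of called genes were repeated without these 2 mice. This gave 957 called genes in place of 1009, 0 members in place of 1, and an equal number of calls (8) in the 4 gene lists described further on, among which Lrrc7 was no longer called (adjusted p = 0.0556, edgeR).

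The members spanned a wide range of levels in WT hippocampus. Levels of different genes were compared as TPM, which divide counts by the counted exon length and sum to the same total in every library. Camk2a stood at 4069 ± 211 TPM (SD, n = 7 WT mice), rank 1 of 24421 genes by its mean over all 14 mice, followed by Dlg4 at 882 ± 27.3 TPM, rank 92. Dlgap1 followed with 278 ± 19.4 TPM, Dlg3 with 211 ± 6.28 TPM and Shank1 with 181 ± 7.89 TPM. Shank3 had 131 ± 7.90 TPM and Dlg2 117 ± 11.1 TPM, and the order ended with Shank2 at 74.4 ± 5.51 TPM and Dlg1 at 65.7 ± 6.16 TPM. Camk2a transcripts were thus 4.61-fold as abundant as those of Dlg4, and Dlg4 transcripts 3.17-fold as abundant as those of Dlgap1. Of the 8 steps between neighbours in this order, 7 held in 7 of 7 WT mice (exact sign-flip permutation test within mouse, two-sided, adjusted p = 0.0179, with 0.0156 as the smallest raw p that 7 mice allow). The step from Shank3 to Dlg2 did not, with 5 of 7 WT mice in this order (exact p = 0.0625), so the order of these neighbours was not settled in WT mice. In mice labelled LPAR2-/-, Shank3 lay above Dlg2 in 7 of 7 and Shank2 above Dlg1 in 5 of 7.

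**Figure D1:**
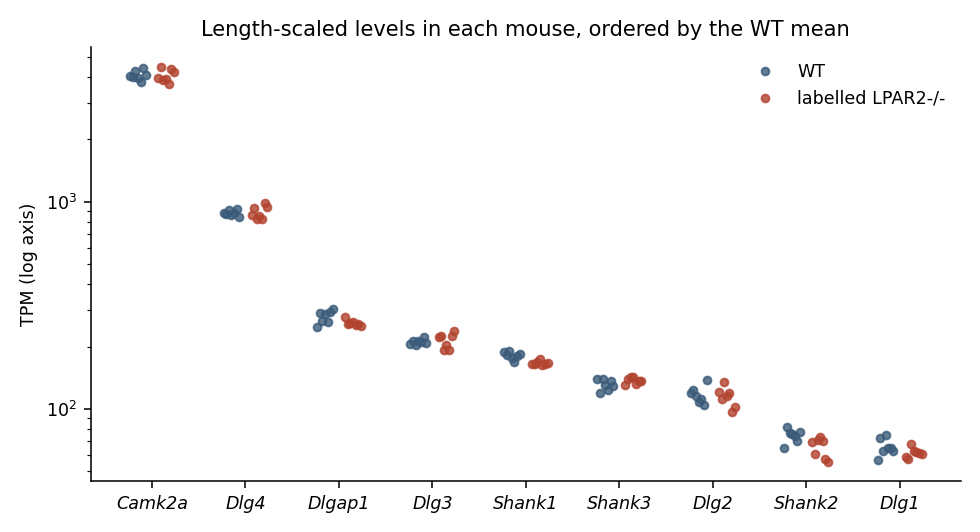
TPM (log axis) of the 9 members in each mouse, ordered by the WT mean, with WT in blue and mice labelled LPAR2-/- in red. Camk2a, at 4069 TPM in WT mice, lies well above the rest, and the points of Shank3 and Dlg2 overlap.

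Between the genotypes the members as a group differed little. Of 9 members 1 was called at an adjusted p under 0.05, Shank1, which was lower. That is 11.1% of members beside 6.77% of all 14897 genes tested (3.46% lower and 3.32% higher), so 1 gene more or less decides whether the members lie above or below the background. All 9 fold changes lay under 0.26 on the log2 scale in size, as did those of 12790 of the 14897 genes. The median log2 fold change of the members was -0.03 and that of all genes 0.003, with 3 members higher and 6 lower before any test. At an unadjusted p under 0.05 there were 3 members (Shank1, Shank2 and Dlgap1), and 22.4% of all genes. The ranges of CPM overlapped between the genotypes for 9 of 9 members, whereas 1.77% of all genes did not overlap. In bulk tissue, fewer cells of a type and less RNA per cell cannot be told apart, which holds for every difference below. The p-values rest on 7 separate mice per genotype.

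**Figure D2:**
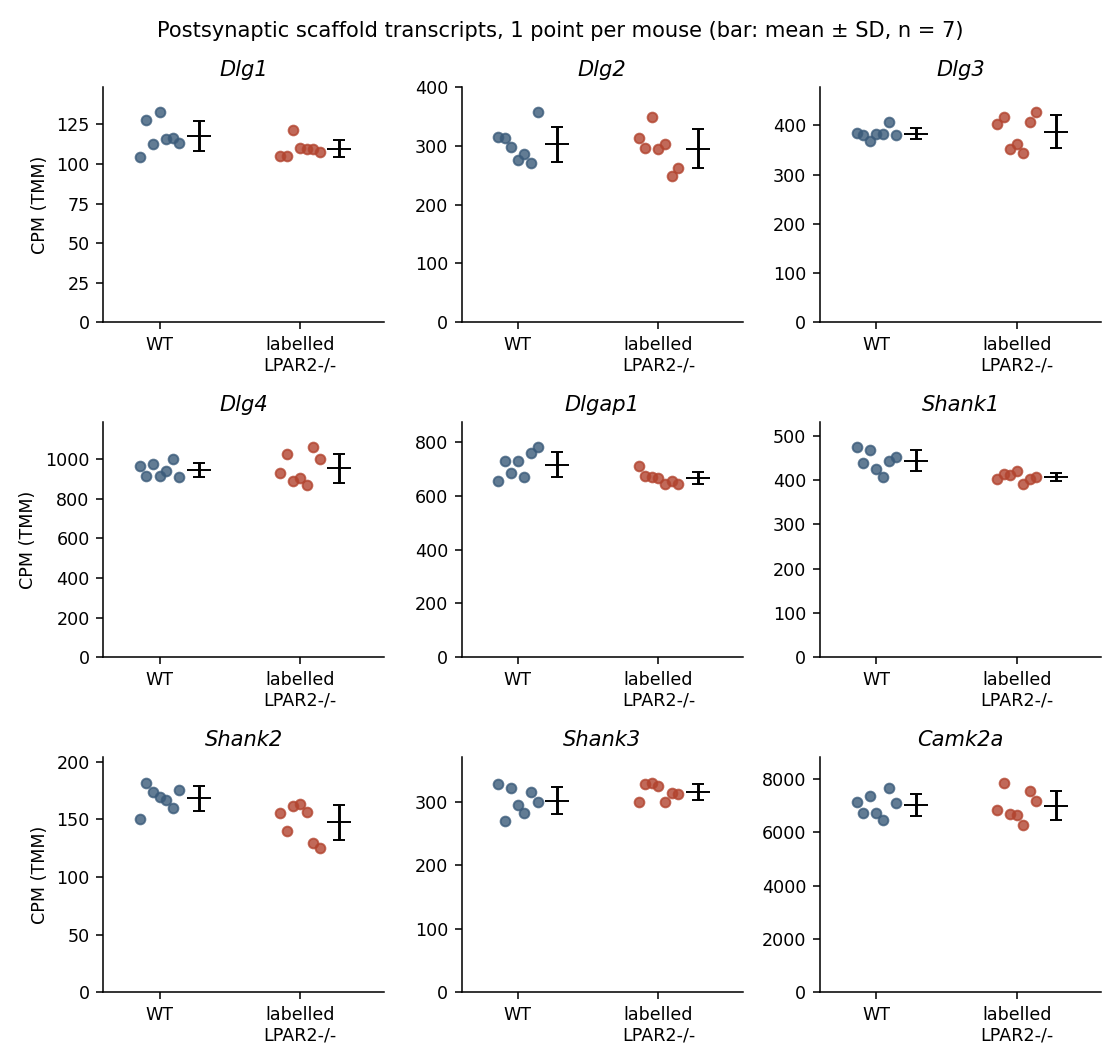
CPM after TMM scaling of each member, with 1 point per mouse (blue WT, red labelled LPAR2-/-) and a bar for the mean ± SD of 7 mice, on axes from 0. Shank1 shows the only called difference, 407 against 444 CPM on average, and the groups overlap in every panel.

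Among the MAGUKs, none passed the test. Dlg4 (chr11:70018605-70045531) encodes PSD-95, the most abundant scaffold of the mature excitatory synapse. Its level was 869 CPM in the lowest, 928 in the median and 1059 in the highest mouse labelled LPAR2-/-, and 912, 940 and 999 CPM in WT mice. The mice labelled LPAR2-/- spread wider than WT mice on both sides, with 3 above and 3 below every WT mouse. The means were 953 ± 74.5 and 946 ± 34.9 CPM (SD, n = 7 each), a log2 fold change of 0.01 ± 0.05 (SE, adjusted p = 0.920, edgeR), with a 95% interval from -6.09% to 8.19%.

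Dlg3 (chrX:100767722-100818410) encodes SAP102, the MAGUK that prevails early in synapse development. Its range was also wider, from 344 over a median of 404 to 426 CPM in mice labelled LPAR2-/- and from 368 over 382 to 406 CPM in WT mice. Again 3 of the 7 mice labelled LPAR2-/- lay above and 3 below all WT mice. On the log2 scale its difference was 0.01 ± 0.05 (SE, adjusted p = 0.896, edgeR, 95% interval -6.05% to 8.66%). A wider spread was not shared by all members, and spread was not tested. The SD of CPM was larger in mice labelled LPAR2-/- for Dlg2, Dlg3, Dlg4, Shank2 and Camk2a. It was smaller in them for Dlg1, Dlgap1, Shank1 and Shank3.

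Dlg2 (chr7:91090786-92449246), which encodes PSD-93, ranged from 248 over 297 to 349 CPM in mice labelled LPAR2-/- and from 272 over 298 to 357 CPM in WT mice. The ranges nearly coincided, with the mice 6 and 7 labelled LPAR2-/- below all others. Its log2 fold change was -0.03 ± 0.07 (SE, adjusted p = 0.826, edgeR, 95% interval -12.2% to 8.62%). Dlg1 (chr16:31663443-31873356), which encodes SAP97, a MAGUK that also carries AMPA receptors on their way to the membrane, ranged from 105 over 109 to 121 CPM and from 104 over 116 to 133 CPM. Here 2 WT mice exceeded all mice labelled LPAR2-/-, and 6 of the 7 mice labelled LPAR2-/- lay below the WT mean. For Dlg1 the log2 fold change was -0.10 ± 0.05 (SE, adjusted p = 0.247, edgeR, 95% interval -13.3% to 0.360%).

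Dlgap1 (chr17:70424792-70821413) encodes SAPAP1, also called GKAP, the link between PSD-95 and the Shanks. It stood at 645 CPM in the lowest, 667 in the median and 711 in the highest mouse labelled LPAR2-/-, against 655, 729 and 780 CPM in WT mice. All 7 mice labelled LPAR2-/- lay below the WT mean, and 4 WT mice lay above all of them. The log2 fold change was -0.10 ± 0.04 (SE), with an unadjusted p of 0.0305 and an adjusted p of 0.170 (edgeR, 95% interval -12.5% to -0.750%), which does not pass. Its paralogs did not pass either. Log2 fold changes were 0.14 for Dlgap2 (adjusted p = 0.179, edgeR), -0.07 for Dlgap3 (adjusted p = 0.491) and -0.05 for Dlgap4 (adjusted p = 0.486).

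Of the Shank genes, Shank1 was called and Shank2 and Shank3 were not. Shank1 (chr7:44310264-44358353) encodes a scaffold found almost only in neurons. It ranged from 392 over 407 to 421 CPM in mice labelled LPAR2-/- and from 408 over 444 to 474 CPM in WT mice. All 7 mice labelled LPAR2-/- lay below the WT mean, 4 of them below every WT mouse, and a single WT mouse, number 5 at 408 CPM, lay within their range. Shank1 fell by 0.13 on the log2 scale (SE 0.04, adjusted p = 0.0495, edgeR), from 444 ± 22.9 to 407 ± 9.08 CPM (SD, n = 7 each), with a 95% interval from -13.2% to -3.28%. This call sits at the threshold. It held in 1 of 14 fits that each left out a mouse (adjusted p 0.0334 without WT mouse 5, up to 0.108 without the mouse 5 labelled LPAR2-/-), it was lost without the mice 2 and 3 labelled LPAR2-/- (adjusted p = 0.0709, edgeR), and over 9 other settings it held in 4.

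Shank2 (chr7:144175520-144422675) encodes a scaffold also found in the cerebellum and in epithelia. It had the largest fold change among the members, from 125 over 156 to 163 CPM in mice labelled LPAR2-/- against 150 over 170 to 182 CPM in WT mice. As many as 5 WT mice exceeded all mice labelled LPAR2-/-, of which the mice 6 and 7 were lowest. The log2 fold change of -0.19 ± 0.06 (SE) did not pass (adjusted p = 0.0789, edgeR, 95% interval -20.0% to -3.99%), and it passed with DESeq2 (adjusted p = 0.0482) and without WT mouse 1 (adjusted p = 0.0388, edgeR).

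Shank3 (chr15:89499857-89560260), whose loss in humans underlies Phelan-McDermid syndrome, was not called. Its level was 299 CPM in the lowest, 313 in the median and 330 in the highest mouse labelled LPAR2-/-, and 269, 299 and 328 CPM in WT mice. The ranges overlapped, with 4 WT mice below all mice labelled LPAR2-/- (log2 fold change 0.06 ± 0.05 SE, adjusted p = 0.439, edgeR, 95% interval -2.28% to 11.8%).

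The balance within each family was compared next. Each gene's share in the summed TPM of its family was compared, a measure that does not depend on the scaling between libraries, by an exact two-sided permutation test over all arrangements of 7 mice against 7, adjusted over 11 shares. The share of Shank3 in the Shank genes was 35.8% in the lowest, 37.5% in the median and 38.1% in the highest mouse labelled LPAR2-/-, and 31.1%, 34.0% and 35.5% in WT mice. All 7 mice labelled LPAR2-/- lay above all 7 WT mice. The share rose from 33.9% ± 1.46 to 37.2% ± 0.971 (SD, n = 7 each, exact permutation p = 0.000583, the smallest this design allows, adjusted p = 0.00641). In turn the share of Shank1 fell from 46.9% ± 0.757 to 45.2% ± 0.896 (exact permutation test, adjusted p = 0.0107), below the WT mean in 7 of 7 mice. The share of Shank2 was 17.6% ± 1.56 against 19.2% ± 1.58 and did not pass (exact permutation test, adjusted p = 0.144). Shares of one family sum to 100%, so these tests are not independent of each other. Expressed as a ratio of TPM, an addition chosen after the shares had been seen, Shank1 transcripts were 1.17 to 1.27 times those of Shank3 in mice labelled LPAR2-/- and 1.33 to 1.53 times in WT mice, with no overlap.

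**Figure D3:**
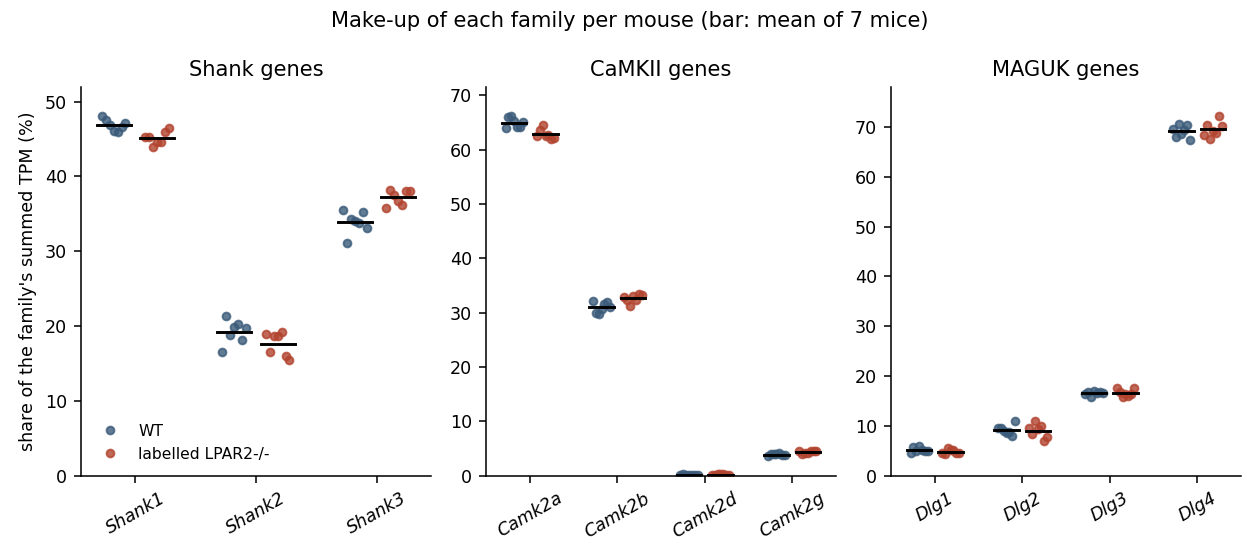
Share of each gene in the summed TPM of its family (%), for the Shank, CaMKII and MAGUK genes, with 1 point per mouse (blue WT, red labelled LPAR2-/-), a bar for the mean of 7 mice and axes from 0. The Shank3 shares, 35.8% to 38.1% against 31.1% to 35.5%, do not overlap, while the MAGUK shares do.

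Camk2a (chr18:60925632-60988152) itself was not called. It ranged from 6279 over 6831 to 7874 CPM in mice labelled LPAR2-/- and from 6474 over 7108 to 7660 CPM in WT mice. A single mouse labelled LPAR2-/- lay above, and another below, all WT mice. The log2 fold change was -0.004 ± 0.06 (SE, adjusted p = 0.980, edgeR), and its 95% interval ran from -8.00% to 8.09%, and with upper-quartile scaling the value turned to 0.015.

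The make-up of the CaMKII holoenzyme genes did differ. CaMKII is assembled from alpha, beta, gamma and delta subunits, of which the beta subunit binds actin and the gamma subunit can carry calmodulin to the nucleus. The share of Camk2a in the 4 genes was 61.9% in the lowest, 62.5% in the median and 64.5% in the highest mouse labelled LPAR2-/-, against 64.0%, 65.1% and 66.2% in WT mice. It lay below every WT mouse in 6 of 7 mice, the exception being mouse 3, and fell from 65.0% ± 0.906 to 62.8% ± 0.921 (SD, n = 7 each, exact permutation test, adjusted p = 0.0107). The share of Camk2b rose from 31.0% ± 0.950 to 32.6% ± 0.785 and that of Camk2g from 3.87% ± 0.187 to 4.35% ± 0.265 (exact permutation tests, adjusted p = 0.0128 each), both above the WT mean in 7 of 7 mice. Camk2d made up 0.199% ± 0.0562 against 0.184% ± 0.0263 and did not pass (exact permutation test, adjusted p = 0.722). At the level of single genes Camk2g rose by 0.21 on the log2 scale (SE 0.05, adjusted p = 0.0249, edgeR), from a mean of 289 CPM to 336 ± 31.7 CPM, and that call held in 11 of 14 fits that each left out a mouse. The log2 fold change of Camk2b was 0.12 ± 0.06 (SE, adjusted p = 0.289, edgeR) and that of Camk2d 0.14 ± 0.13 (SE, adjusted p = 0.570).

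For the MAGUK genes no shift in proportions was detected. Dlg4 made up 69.5% ± 1.53 of their summed TPM in mice labelled LPAR2-/- and 69.1% ± 1.17 in WT mice, Dlg3 16.7% ± 0.708 and 16.5% ± 0.421, Dlg2 9.0% ± 1.38 and 9.19% ± 0.964, and Dlg1 4.81% ± 0.451 and 5.15% ± 0.498. None of these 4 shares passed (exact permutation tests, adjusted p from 0.322 to 0.780). In all, 5 of 11 shares passed, and each of the 5 also passed in 14 of 14 repeats that left out a mouse and without the mice 2 and 3 labelled LPAR2-/-. Shares and ratios within other gene families were not computed. How often such shares pass, or such ratios do not overlap, over the whole table is therefore not known, and nothing particular to these families is read from the count.

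Sums of cell type and subfield markers were set beside these shares, with the genotype means removed, and for each of the 5 shares that passed the list with the largest r in size is given. The share of Shank3 ran against the CA1 markers, led by Wfs1 and Fibcd1 (r = -0.77 over 14 mice), and without WT mouse 2 this r was -0.47. The share of Camk2a ran with the oligodendrocyte markers, led by Mbp (r = 0.67), and that of Camk2b ran against them (r = -0.59), but without the mouse 3 labelled LPAR2-/- these values were 0.42 and -0.30. Both relations therefore rest in part on that library, as the CA1 relation does on WT mouse 2. The share of Shank1 ran against the astrocyte markers (r = -0.62) and that of Camk2g against the pan-neuronal markers (r = -0.60). The omission of single mice was added after seeing the data. CA1 markers summed to 112 to 238 CPM in mice labelled LPAR2-/- and 125 to 442 CPM in WT mice, with 5 of 8 tested markers lower and 0 called, and WT mouse 2, at 442 CPM, also had the lowest Shank3 share. Without that mouse the difference in the Shank3 share was 2.87 percentage points, the smallest over the 14 repeats, which does not test the part of CA1 content. Oligodendrocyte markers summed to 1049 to 4244 CPM and 1286 to 2217 CPM, with 8 of 9 higher and 0 called. These values share libraries with the members, and the part of cell composition in the shares was not tested.

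**Figure D4:**
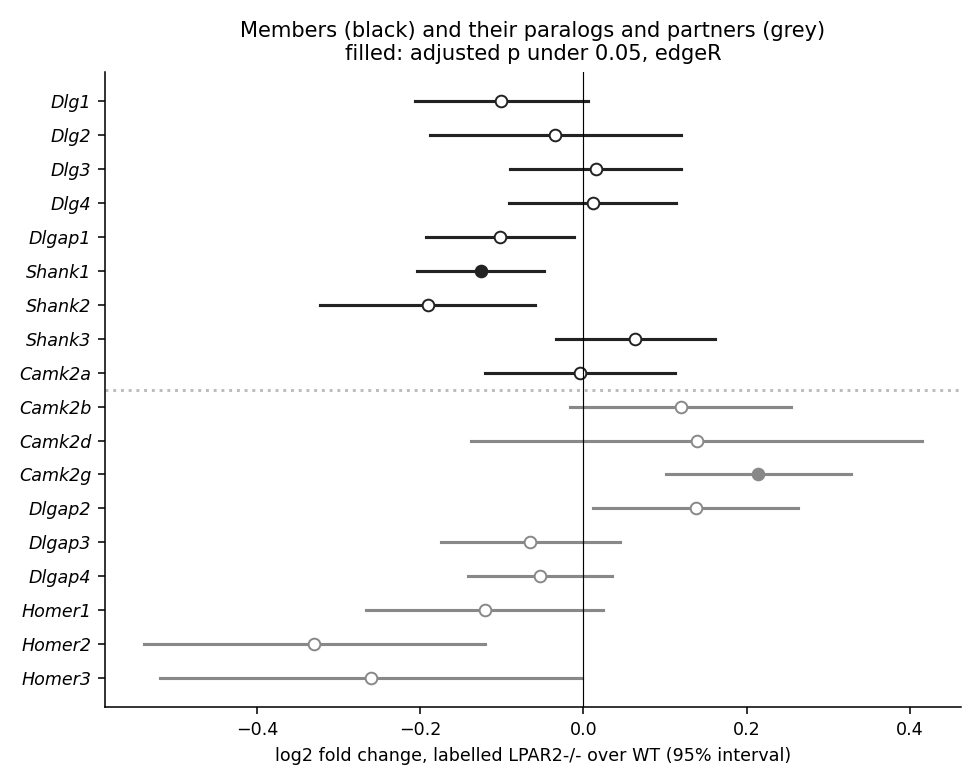
Log2 fold change of the mice labelled LPAR2-/- over WT with its 95% interval, for the 9 members (black) and for CaMKII, SAPAP and Homer genes (grey), where filled points have an adjusted p under 0.05 (edgeR). Shank1 at -0.13 and Camk2g at 0.21 are filled, and the interval of Camk2a runs from -0.12 to 0.11.

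How the members varied together between mice of one genotype was also measured. Pearson's r and Spearman's rho of log2 CPM, after the genotype means had been subtracted, were computed for 36 pairs over 14 mice, with 100000 permutations within genotype. After adjustment over the 36 pairs, 1 pair passed by Pearson's r and 5 by Spearman's rho. Dlg4 and Camk2a passed by both, with r = 0.88 and rho = 0.85 (permutation p = 0.00021 and 0.00087, adjusted p = 0.00756 and 0.0313). The relation held with r = 0.83 without the 2 mice farthest from the median of Dlg4, and r was 0.94 in mice labelled LPAR2-/- and 0.75 in WT mice. Dlg4 ran against Shank2 (r = -0.80, permutation p adjusted to 0.0769) and with Dlg3 (r = 0.79, adjusted to 0.110), and Shank1 ran with Shank3 (r = 0.75, adjusted to 0.109), none of which passed on Pearson's r. By rank these 3 pairs passed, as did Dlg3 with Shank2 (rho = -0.82), each with an adjusted permutation p of 0.0359. In mice labelled LPAR2-/- and in WT mice, r was -0.87 and -0.58 for Dlg4 with Shank2 and 0.86 and 0.39 for Dlg4 with Dlg3. For Shank1 with Shank3 it was 0.82 and 0.74, and for Dlg3 with Shank2 -0.80 and -0.47.

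**Figure D5:**
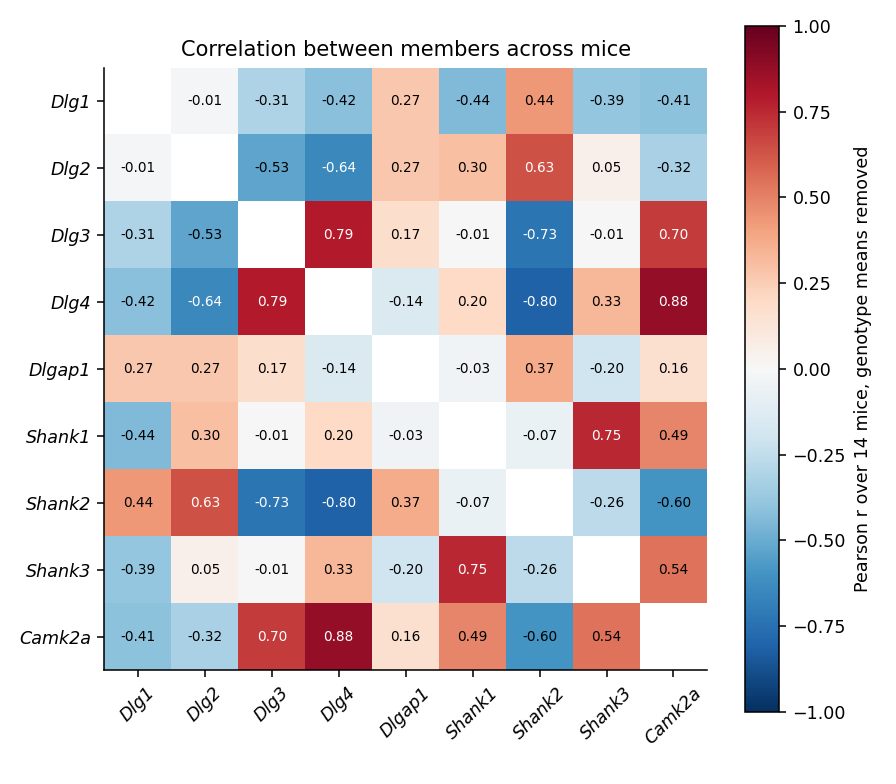
Pearson's r between members over 14 mice after the genotype means were removed, on a colour scale from -1 (blue) to 1 (red). Dlg4 and Camk2a have the highest value, 0.88, and Dlg4 and Shank2 the lowest, -0.80.

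Marker sums of neuronal types and subfields correlated with some of the same members. The sum of inhibitory neuron markers, led by Gad1 and Gad2, ran against Dlg4 (r = -0.88 over 14 mice, genotype means removed), Camk2a (r = -0.74) and Dlg3 (r = -0.65) and with Dlg2 (r = 0.78) and Shank2 (r = 0.71). Pan-neuronal markers ran with Dlg2 (r = 0.87) and excitatory neuron markers with Camk2a (r = 0.74). The sum of CA3 markers, led by Grik4 and Bok, ran with Dlg2 (r = 0.84) and Shank2 (r = 0.64) and against Dlg3 (r = -0.72) and Dlg4 (r = -0.69). The sum of dentate granule cell markers showed the reverse, with r of -0.82 for Dlg2, 0.76 for Dlg3 and 0.70 for Dlg4. Mice 6 and 7 labelled LPAR2-/- had the lowest CA3 sums of all 14 mice, 359 and 307 CPM, together with dentate sums of 2048 and 2063 CPM, the lowest Dlg2 and Shank2 levels, and Dlg4 levels of 1059 and 999.6 CPM. They also had the lowest inhibitory sums, 580 and 684 CPM, and the lowest pan-neuronal sums, 6681 and 6774 CPM, of all 14 mice. CA3 markers summed to 307 to 607 CPM in mice labelled LPAR2-/- and 386 to 775 CPM in WT mice (means 491 and 588 CPM), with 7 of 8 markers lower and 0 of 8 called. All of these correlations are descriptions, and the part of the dissected region and of cell composition in them was not tested.

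The genes most like each member, by r of log2 CPM over 14 mice with genotype means removed among 14896 other genes, differed from member to member. Dlg4 was most like Rbfox3 (r = 0.96), a splicing factor of mature neurons, and Grina (r = 0.94), and Camk2a was most like Grina (r = 0.905) and Strada (r = 0.89). Rbfox3 is also the first of the pan-neuronal markers, but the sum of that list had an r of -0.30 with Dlg4. Dlg2 was most like Ids (r = 0.98) and Napb (r = 0.97), Dlg3 like Pgbd5 (r = 0.94) and Galns (r = 0.93), and Dlg1 like Bicd2 and Vps13a (r = 0.91 each). Shank2 was most like Klhl3 (r = 0.97) and Ankrd11 (r = 0.96), and Shank3 like Cnih2 (r = 0.90), an auxiliary subunit of AMPA receptors, and Map3k10 (r = 0.88). Dlgap1 was most like Tanc1, itself a postsynaptic scaffold, and Ddx6 (r = 0.89 each), and Shank1 had the least close matches, Amn (r = 0.87) and Ccdc23 (r = 0.84). Grina was the only gene named for more than 1 member.

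The wider scaffold and its partners were described by lists. Of 40 other postsynaptic scaffold genes 3 were called, all lower, which is 7.50% beside 6.77% of all genes, with a median log2 fold change of -0.03. They were Dynll1, a dynein light chain that binds SAPAPs, which fell by 0.17 on the log2 scale (adjusted p = 0.0232, edgeR), Anks1b, which encodes the PSD-95 binding protein AIDA-1 and fell by 0.12 (adjusted p = 0.0345), and Lrrc7, which encodes densin-180, a partner of CaMKII alpha and Shank, and fell by 0.22 (adjusted p = 0.0469). The Dynll1 call held in 12 of 14 fits that each left out a mouse, the Anks1b call in 4 and the Lrrc7 call in 5. The Homer genes, whose products tie Shank to metabotropic glutamate receptors, did not pass. Homer1, whose counts do not separate the long forms from the short form Homer1a, stood at -0.12 on the log2 scale (adjusted p = 0.316, edgeR), Homer2 at -0.33 (adjusted p = 0.0574, and 0.0192 with DESeq2) and Homer3, which lies within 10 Mb of Lpar2, at -0.26 (adjusted p = 0.218).

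Among 28 CaMKII subunits and regulators, Camk2g was the 1 gene called (3.57%), with a list median of 0.01. Of 14 genes for the palmitoylation and depalmitoylation of scaffolds, which moves PSD-95 to and from the membrane, 1 was called (7.14%), with a median of -0.05. This was Zdhhc8, a palmitoyl transferase, which rose by 0.37 on the log2 scale (adjusted p = 0.0289, edgeR), from 109 ± 15.4 to 140 ± 17.1 CPM, and the call held in 7 of 14 fits that each left out a mouse.

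Of 34 adhesion molecules of the postsynaptic side and their partners 3 were called (8.82%), with a median of 0.03. Adgrb3, an adhesion receptor for C1q-like proteins, rose by 0.21 on the log2 scale (adjusted p = 0.00437, edgeR), from 122 ± 5.66 to 141 ± 6.06 CPM, with no overlap between the genotypes. Its relative Adgrb1 fell by 0.19 (adjusted p = 0.0238, edgeR), from 520 ± 16.8 to 457 ± 34.3 CPM. Nlgn3, a neuroligin that binds PSD-95 and contacts presynaptic neurexins, fell by 0.23 (adjusted p = 0.0153, edgeR), from 104 ± 9.11 to 88.4 ± 3.83 CPM. The Adgrb3 and Nlgn3 calls held in 14 of 14 fits that each left out a mouse, and the Adgrb1 call in 12. Each list's share of called genes lies near the background, and nothing particular to a list is read from it.

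Markers of tissue around the hippocampus were also set beside the members. Meninges markers, led by Dcn and Col1a1, summed to 113 to 480 CPM in mice labelled LPAR2-/- and 84.9 to 348 CPM in WT mice, with means of 301 and 170 CPM. The median log2 fold change of these 10 markers was 0.84, 9 lay above 0, 7 had an unadjusted p under 0.05 and 1 was called (Lum, chosen after its value was seen, edgeR). Excitatory neuron markers, led by Slc17a7 and Neurod2, summed to 2295 to 2911 CPM and 2338 to 2952 CPM, with 0 of 7 called, and inhibitory neuron markers, led by Gad1 and Gad2, to 580 to 857 CPM and 702 to 809 CPM, with 0 of 10 called. Astrocyte markers (Gfap and Aqp4 first), microglia markers (Cx3cr1 and P2ry12), endothelial markers (Cldn5 and Pecam1), thalamus markers (Tcf7l2 and Prkcd) and striatum markers (Drd1 and Drd2) overlapped between the genotypes in their sums, with 0 called in each list, although 6 of 11 striatum markers had an unadjusted p under 0.05. Before any test, 7 of 9 astrocyte, 3 of 9 microglia, 4 of 8 endothelial, 4 of 8 thalamus and 4 of 11 striatum markers lay lower. Choroid plexus markers (Ttr and Folr1) gave 28.8 to 295 CPM and 29.9 to 35.3 CPM, with 4 of 4 tested higher and 0 called, and without the mouse 2 labelled LPAR2-/- the first range was 28.8 to 54.3 CPM. The part of these cells in the differences of the members was not tested.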

How the data were processed

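The hippocampal RNA of 14 mice, 7 labelled LPAR2-/- and 7 WT, was sequenced by the authors on an Illumina HiSeq instrument. Libraries came from ribosome-depleted total RNA according to the study's methods, while the labels name another Illumina kit. Per the labels and file headers, adapters were removed (cutadapt 1.18), STAR placed the reads on mm10, and featureCounts 1.6.3 assigned them to the exons of genes on the reverse strand. The deposited counts of 24421 genes (15434620 to 23258949 per mouse) are the main data. The authors also deposited normalized values, counts divided by DESeq2 size factors (1.22.2) and gene length, which served as an alternative after the decimal points lost in the file had been restored. Of those above 1, rescaled counts matched 99.97% to within 1%. Columns with log2 of these normalized values, deposited by the authors, were not used.

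Genes were tested with edgeR 4.0.16 (R 4.3.3): filterByExpr (14897 genes), TMM, robust quasi-likelihood F test of genotype over all 14 mice without covariates, Benjamini-Hochberg adjustment over all genes tested and a threshold of 0.05. The SE is the log2 fold change divided by the square root of F. Single mice are given as CPM (log2 values with 2 added as prior count), and levels between genes as TPM. Family shares, the order of levels and correlations were tested by permutation (NumPy 2.4.6). Alternatives used DESeq2 1.42.0, limma 3.58.1, other scalings and filters, the mouse number as a block and the omission of each mouse. The tests were tried on simulated data. The genes named were the members, Lpar2, the CaMKII, SAPAP and Homer paralogs, up to 4 called genes of each list by the smallest p, the 2 genes most like each member and the first 2 genes of each marker list, of which 1 is not reported here. The members and lists were chosen with earlier results of these data known. Promoter sequences came from RefSeq (GRCm38.p6) and coding sequences from GENCODE M21, both of the build mm10 of the files.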

Additional observations from a re-analysis of the deposited data

Results flagged for a closer look

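Among 40 groups of 7 values (the CPM of the 9 members and the 11 family shares in each genotype), 2 held a mouse that stood apart from the other 6 of its genotype by Dixon's test, where chance gives about 1 in 20 groups. Dlg1 in the mouse 3 labelled LPAR2-/- had 121 CPM, the others of that genotype 105 to 110 CPM (gap over range 0.659). This is the mouse with the highest oligodendrocyte marker sum, 4244 CPM, and the part of oligodendrocytes in its Dlg1 level was not tested. Dlg3 in WT mouse 6 had 406 CPM, the other WT mice 368 to 384 CPM (gap over range 0.591). This mouse had the lowest CA3 sum (386 CPM) and the highest dentate sum (2077 CPM) of the WT mice.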

How the results depend on the processing

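The number of members called was 2 with DESeq2 (Shank1 and Shank2), and 0 with the upper quartile in place of TMM, with no filter on low counts, with at least 10 counts in every library, with a replicate block for the mouse number and without the mice 2 and 3 labelled LPAR2-/- (added after seeing the data), against 1 in the main analysis. It was 0 to 1 when single mice were left out. The genes called over the whole table (1009) fell to 586 under the replicate block and ranged from 567 to 1385 when single mice were left out. Calls in the 4 lists (8) came to 13 with DESeq2 and to 3 to 12 when single mice were left out. The cause of these shifts was not tested. The upper quartile moved the share of higher calls from 49.0% to 62.0% and turned the log2 fold change of Camk2a to 0.015. Leaving out single mice also turned the sign of values near 0, with ranges of -0.0342 to 0.0231 for Camk2a, -0.0787 to 0.0093 for Dlg2, -0.0095 to 0.0438 for Dlg3 and -0.0156 to 0.0348 for Dlg4 (log2), and of -0.519 to 0.148, -0.0364 to 0.269 and -0.0487 to 0.710 percentage points for the shares of Dlg2, Dlg3 and Dlg4. Without subtracting genotype means 2 pairs of members passed, and r turned in sign for Dlg1 with Dlg2 (0.054), Dlg1 with Shank1 (0.11), Dlg2 with Shank3 (-0.0038), Dlg3 with Shank3 (0.0196), Shank1 with Shank2 (0.45) and Shank1 with Dlgap1 (0.43).

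Whether the mouse numbers pair the animals is not settled. Same-numbered mice correlated at -0.33 to 0.31, above 0.1 in 3 of 7 pairs, and differently numbered mice of the 2 genotypes were not compared. Under the block Shank1 stood at -0.12 on the log2 scale (adjusted p = 0.102, edgeR), and the 5 family shares passed by sign-flips within the number (exact permutation test, adjusted p = 0.0344). Leaving out single mice gave 5 to 6 passing family shares, and 7 of 8 steps in the order of levels passed with a pseudocount of 1 and without each WT mouse. For the members that were not called, the intervals given beside them bound the size of a difference at this number of mice.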
